A study of Danio rerio with 30 samples.

Results

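The clustered protocadherins are neuronal cell-surface cadherins encoded side by side in alpha and gamma groups, and the zebrafish carries a pair of such clusters. Their transcripts were followed in heads of zebrafish with and without knockdown of grb10a. Members were all gene symbols of the array annotation that begin with pcdh1a, pcdh1g, pcdh2a or pcdh2g, each read by its brightest probe set. Of 42 such symbols, 29 had a probe set of their own, among 19260 genes measured in this way. They comprise 1 alpha gene (pcdh1a6) and 8 gamma genes (pcdh1g) of cluster 1, 8 alpha genes (pcdh2a) and 11 gamma genes (pcdh2g) of cluster 2, and pcdh1a. By its name pcdh1a corresponds to PCDH1, a protocadherin outside the clusters, and it meets the rule only by the spelling of its symbol, so the leading count is also given without it. The other 13 symbols occur only in probe sets annotated to several symbols.

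RNA was taken from all tissue anterior to the gills of AB strain zebrafish, and each array was hybridised with a pool of 5 fish. The ages were 5, 10, 15, 20 and 30 dpf (days after fertilisation), and at each of them 3 pools came from fish injected as embryos with a splice-blocking morpholino against grb10a (KD) and 3 from fish injected with a standard control morpholino against human beta-globin (SC), which makes 30 arrays in 10 groups. Phenol red and mRNA for the blue fluorescent protein nCerulean were part of every injection, and weakly or unevenly fluorescent embryos were discarded. The study design places the KD target at the splice donor of the third coding exon of grb10a, which encodes an adaptor protein of insulin and IGF receptor signalling. The treatment notes mention the fourth exon as well, and the site given here follows the design. Embryos were injected once, and the labels do not say how much of the block was left at the later ages. Since each array is a pool, p-values rest on the spread among pools and not among single fish.

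In a clustered protocadherin locus, many variable exons, each with its own promoter, are joined by splicing to constant exons shared by the whole group. A variable exon encodes the extracellular cadherin repeats, the membrane span and the start of the cytoplasmic tail, and a neuron expresses only some of them, in a choice known from mouse to involve CTCF, cohesin and DNA methylation at the promoters. The proteins bind their like on neighbouring membranes, and in mouse they serve self-avoidance of dendrites, axon arrangement and neuron survival.

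Values are log2 signals of an Affymetrix gene array, made by the authors, and differences are KD minus SC on that scale unless another pair is named. "Higher", "lower", "rose" and "fell" are used of a gene's call only for a Benjamini-Hochberg adjusted p under 0.05 over all genes in limma's moderated test, with 1 mean per group and 1 spread shared by all 30 arrays. Group values are means ± SD of 3 arrays, and SE is the standard error of a difference. A signal cannot be compared between probe sets. Of the members, 1 (pcdh2aa3, mean 3.50) lay below 6.06, the limit of the dimmest 33.3% of genes.

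The arrays had medians of 5.51 to 5.63, and arrays of 1 group correlated at 0.952 to 0.983 over genes. Of 41 neuron markers measured, 40 lay above the dim limit, so the heads hold the cell type in which these genes are known. The signal of grb10a at 5 dpf was 9.28, 9.10 and 8.95 in KD heads, against 8.05, 8.21 and 8.03 in SC heads, and was thus higher in KD (difference 1.01, SE 0.12, limma adjusted p = 3.59e-07); the annotation does not place its probes relative to the blocked splice site. The 5 dpf SC arrays also carried transcripts of trunk organs. A visceral score, the mean signal of 42 pancreas, liver and intestine genes, was 5.49 to 6.14 in KD and 9.59 to 9.71 in SC heads at 5 dpf, and its group means lay between 5.31 and 6.67 at the later ages in both treatments. In pooled heads, fewer neurons and less transcript per neuron cannot be told apart.

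**Figure D1:**
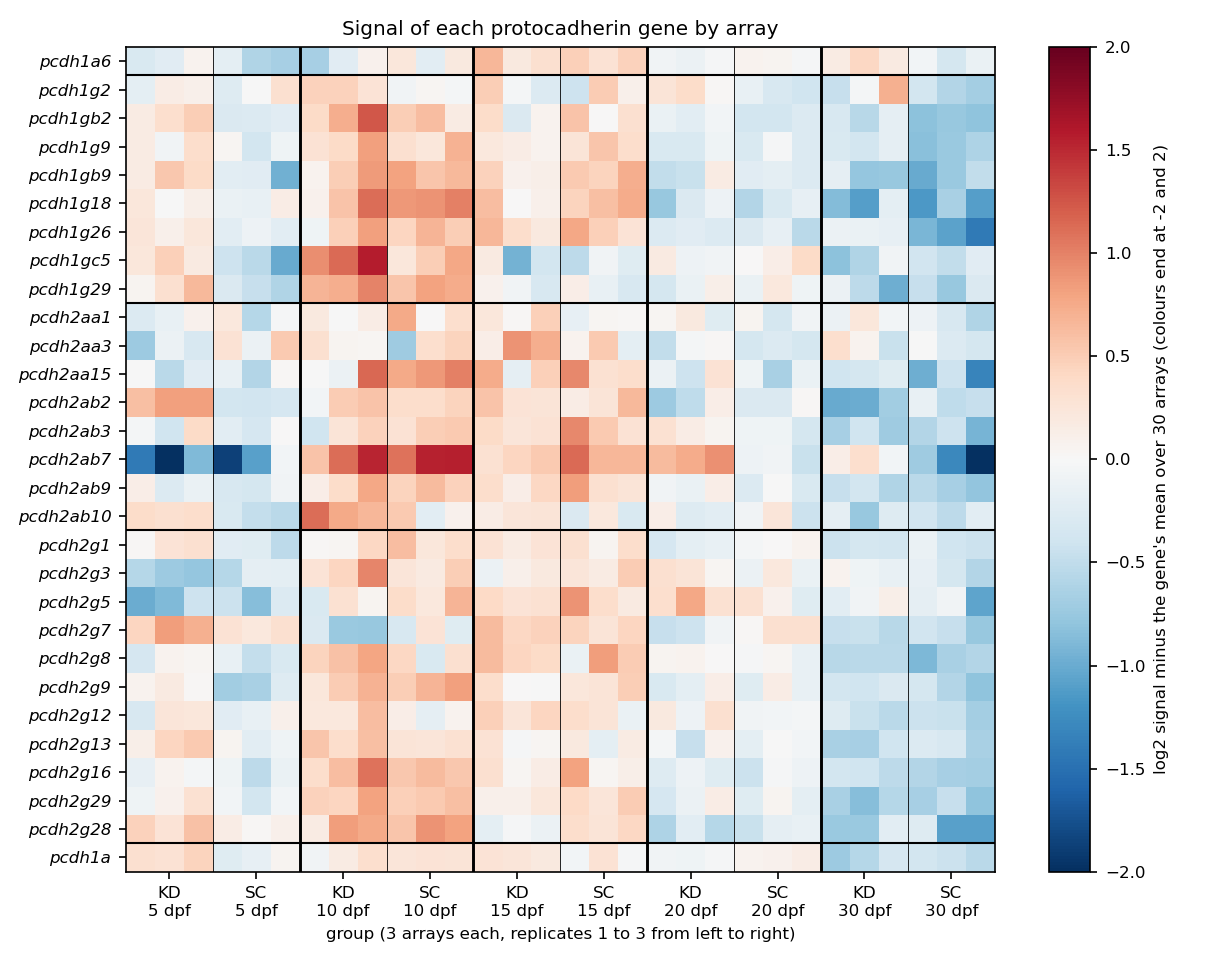
Log2 signal of each of the 29 members on each of the 30 arrays, minus the gene's mean over all arrays, with KD left of SC at each age and rows grouped as pcdh1a6, pcdh1g, pcdh2a, pcdh2g and pcdh1a. Colours end at -2 and 2. Most rows are blue at 30 dpf and red at 10 dpf in both treatments, at 5 dpf the KD columns are redder than the SC columns in most rows, and KD replicate 3 at 10 dpf is the reddest KD column.

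Protocadherin genes of 3 of the 4 groups were higher in KD heads at 5 dpf. Of the 29 members 10 were higher and 0 lower, or 9 of 28 without pcdh1a; over all genes, 5.47% were higher and 6.51% lower at this age. The difference was positive for 24 members and negative for 5, with a median of 0.29, against 0.02 over all genes. In 13 members all 3 KD arrays lay above all 3 SC arrays, as they did in 15% of all genes, and in 1 member, the dim pcdh2aa3, all lay below, against 13.6% of all genes (difference -0.62, adjusted p = 0.125). The 10 comprised 4 of 8 pcdh1g, 2 of 8 pcdh2a, 3 of 11 pcdh2g and pcdh1a, with differences between 0.44 and 1.12. These 10 were higher in the same comparison in which 15 of 16 exocrine pancreas genes, 16 of 16 liver genes, 9 of 10 intestine genes and 19 of 23 skeletal muscle genes were lower, with median differences of -5.66, -3.29, -3.32 and -0.86. The muscle score was 8.29 ± 0.22 in KD and 9.17 ± 0.05 in SC heads, and the neuron score 8.81 ± 0.10 in KD and 8.66 ± 0.06 in SC heads. The part of these other tissues in the protocadherin differences was not tested. With the neuron score of each array as a covariate, 9 members were higher at 5 dpf and 0 lower. In that fit 2498 of 19260 genes passed in either direction. The part of neuron content in the protocadherin differences was not tested by it.

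**Figure D2:**
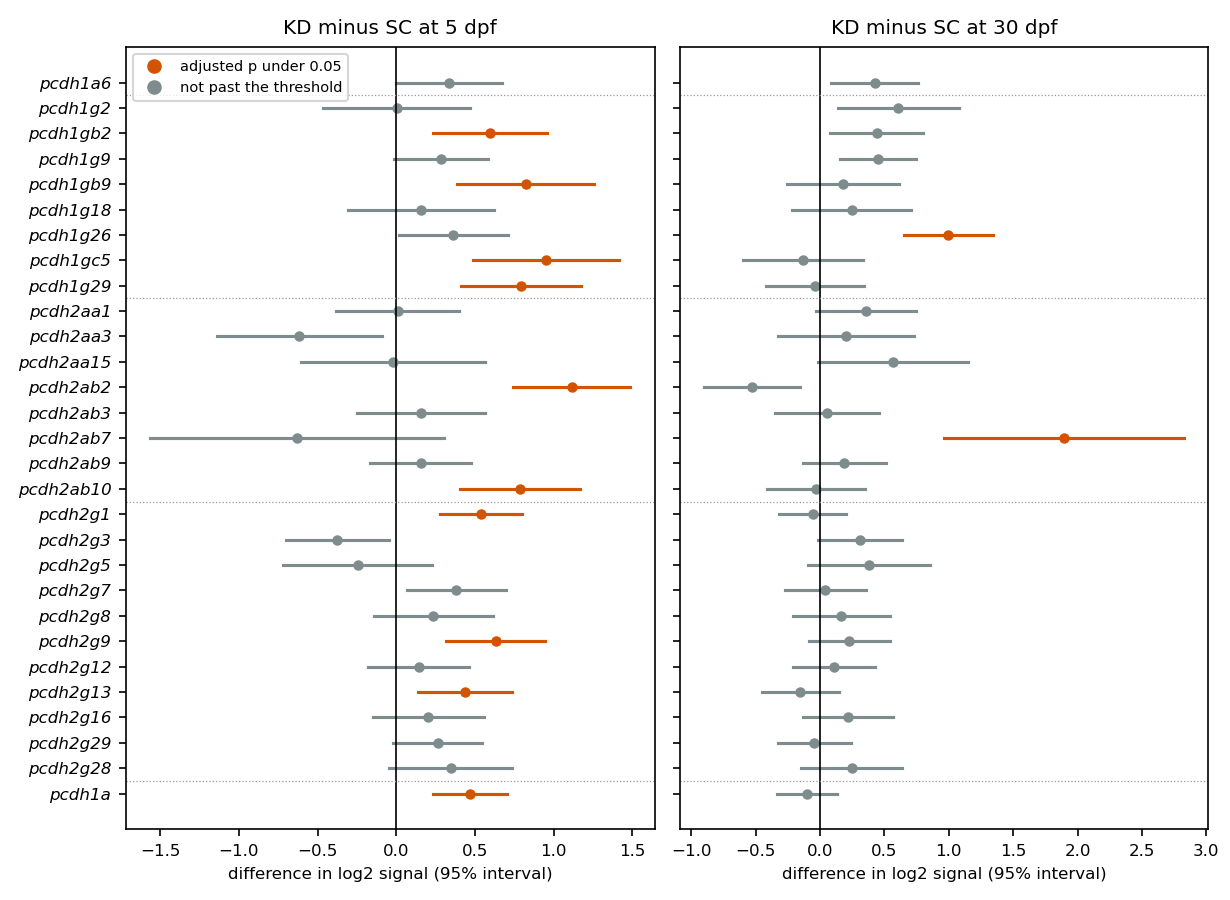
KD minus SC difference in log2 signal of each member at 5 dpf (left) and 30 dpf (right), with its 95% interval; orange marks an adjusted p under 0.05. At 5 dpf 10 members are orange, all to the right of 0, and at 30 dpf 2 are, pcdh1g26 and pcdh2ab7.

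Among the gamma genes of cluster 1, pcdh1gc5 differed most. It belongs to the C-type isoforms, which in mouse lie at the end of the variable exons and are expressed more evenly among neurons. Its signals at 5 dpf were 7.94, 8.19 and 7.89 in KD heads, against 7.29, 7.17 and 6.70 in SC heads. The lowest KD array thus stood above the highest SC array, and the difference was 0.95 (SE 0.23, 1.93-fold, limma adjusted p = 0.00542). For pcdh1gb9, a b-type gamma isoform by its name, the KD arrays gave 6.71, 7.09 and 6.93 and the SC arrays 6.34, 6.33 and 5.60. SC replicate 3 was lower than the other SC arrays, and the difference of 0.82 (SE 0.21, adjusted p = 0.00991) was 0.57 without it and then did not pass, with adjusted p = 0.0943. The variable gamma gene pcdh1g29 had 8.80, 9.08 and 9.40 in KD and 8.46, 8.29 and 8.16 in SC heads, without overlap (difference 0.79, SE 0.19, adjusted p = 0.00481). Signals of pcdh1gb2 were 7.03, 7.20 and 7.35 in KD heads and 6.57, 6.59 and 6.63 in SC heads, where they were nearly equal (difference 0.60, SE 0.18, adjusted p = 0.0249). The call of pcdh1gb2 was lost without any 1 of the SC replicates and without KD replicate 2 or 3, with a difference of 0.52 to 0.68 over 15 alternatives, and that of pcdh1gb9 also without KD replicate 2. The remaining pcdh1g genes also had differences above 0, from 0.00 for pcdh1g2 to 0.36 for pcdh1g26, and none of these passed.

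In the alpha group of cluster 2, pcdh2ab2 had the largest difference of any member at 5 dpf. Its signals were 7.65, 7.86 and 7.87 in KD heads, against 6.67, 6.66 and 6.71 in SC heads, a gap many times the spread within either group (difference 1.12, SE 0.18, 2.17-fold, limma adjusted p = 7.76e-05). Signals of pcdh2ab10 were 7.89, 7.85 and 7.88 in KD and 7.22, 7.05 and 6.98 in SC heads (difference 0.79, SE 0.19, adjusted p = 0.00506). The KD arrays lay close together and above every SC array. The other 6 pcdh2a genes lay between -0.63 (pcdh2ab7) and 0.16 and did not pass. The probe sets read for pcdh2ab2 (13007385) and pcdh2ab10 (13007400) have identifiers before that of the set annotated to all pcdh2a symbols (13007405). Those read for the other 6 genes all come after it. The split between passing and other pcdh2a genes is thus also a split between runs of probe sets.

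Of the gamma genes of cluster 2, pcdh2g9 gave 7.04, 7.16 and 7.0 in KD heads and 6.28, 6.32 and 6.71 in SC heads, with SC replicate 3 nearest to the KD arrays (difference 0.63, SE 0.15, limma adjusted p = 0.00624). For pcdh2g1 the KD arrays read 7.67, 7.91 and 7.95 and the SC arrays 7.41, 7.39 and 7.12, without overlap (difference 0.54, SE 0.13, adjusted p = 0.00485). Signals of pcdh2g13 were 7.65, 7.97 and 8.06 in KD heads and 7.60, 7.33 and 7.45 in SC heads, with KD replicate 1 close to SC replicate 1. Its adjusted p was the largest of the 10 (difference 0.44, SE 0.15, adjusted p = 0.0482), and the call was lost in 7 of 15 alternatives, among them those without KD replicate 2 or 3 and without SC replicate 2 or 3. Of the 8 gamma genes that did not pass, pcdh2g3 and pcdh2g5 were below 0, at -0.38 (adjusted p = 0.132) and -0.25 (adjusted p = 0.557). Outside the clusters, pcdh1a read 9.09, 9.06 and 9.22 in KD and 8.53, 8.60 and 8.83 in SC heads (difference 0.47, SE 0.11, adjusted p = 0.00674). The single alpha gene of cluster 1, pcdh1a6, overlapped between the groups (difference 0.34, adjusted p = 0.196).

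For 9 members the annotation holds more than 1 probe set, and the probe sets of a gene did not always give the same picture at 5 dpf. Both sets of pcdh1gb9 had positive differences, 0.82 and 0.75, as had both sets of pcdh1g29, 0.79 and 0.45. In pcdh2ab10 the brightest set was higher in KD (0.79), whereas the other sets stood at -0.97 and -0.05. The signals of the set at -0.97 (13007440) were 4.86, 6.47 and 6.87 in KD, against 6.97, 6.91 and 7.22 in SC heads, so KD replicate 1 was far below the rest (adjusted p = 0.161 over all probe sets). With the mean of its 3 sets, pcdh2ab10 had a difference of -0.079, so the sign of its change at 5 dpf rests on which set is read. In pcdh2ab3 the brightest set was at 0.16, and the other 3 at 0.30, 0.71 and 0.81, none past the test. In pcdh2aa1 the sets were almost equally bright, with mean signals of 6.12 and 6.11, but the set read was at 0.01 and the other (13007367) at 0.75, with 6.29, 6.44 and 6.64 in KD and 6.07, 5.64 and 5.41 in SC heads (adjusted p = 0.303). At 30 dpf the same sets of pcdh2aa1 stood at 0.36 and -0.36. The second set of pcdh2ab2 (13007428, mean 4.42, under the dim limit) was at 0.53, with overlapping groups. Both sets of pcdh2g3 were negative, at -0.38 and -0.32, and both of pcdh2ab9 positive, at 0.16 and 0.37. For pcdh2g16 the brightest set was at 0.20 and did not pass, while its other set (13007484) was higher by 0.48 (SE 0.13, adjusted p = 0.0348).

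The transcripts of a group share constant exons, and some probe sets are annotated to several or all symbols of a group. Their probes are read on the same arrays as those of the single genes. The annotation gives neither place nor strand for these probes, so whether they read the constant exons was not tested. Tested among all 75212 probe sets, of which 1.43% were higher and 2.23% lower at 5 dpf, 4 of the 6 sets annotated to member symbols alone were higher in KD heads and 0 lower. Most of the 75212 sets, 53551, carry no symbol. Over genes, the shares at this age were 5.47% higher and 6.51% lower. The set annotated to all 15 pcdh1g symbols (12962769) read 10.91, 10.70 and 10.88 in KD heads, against 10.18, 10.00 and 10.29 in SC heads. Its KD arrays lay well clear of its SC arrays, and the difference was 0.68 (SE 0.12, 1.6-fold, limma adjusted p = 0.00103). The set annotated to all 11 pcdh2a symbols (13007405) read 10.50, 10.38 and 10.56 in KD and 10.06, 9.90 and 9.93 in SC heads, also without overlap (difference 0.51, SE 0.10, adjusted p = 0.00179).

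Of the sets annotated to fewer symbols, 2 passed. The set for 5 pcdh1g symbols with the C-type gc5 and gc6 (12962763) was higher by 0.51 (adjusted p = 0.0265), and that for pcdh2g2 and pcdh2g6 (13007470) by 0.55 (adjusted p = 0.0408). For the broad pcdh2g sets the differences were 0.33 with 10 symbols (13013085, adjusted p = 0.19) and 0.23 with 7 symbols (13007501, adjusted p = 0.326), with all KD arrays above all SC arrays in both but no call. The sets for all pcdh1g and all pcdh2a symbols passed in each of 12 alternatives, with differences of 0.60 to 0.77 and 0.48 to 0.57. The set for 5 pcdh1g symbols lost its call in 5 of these, without KD replicate 1 or 3 or without any 1 SC replicate, and the set for pcdh2g2 and pcdh2g6 in 6, without KD replicate 2 or 3, without any 1 SC replicate and with the neuron score as a covariate.

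**Figure D3:**
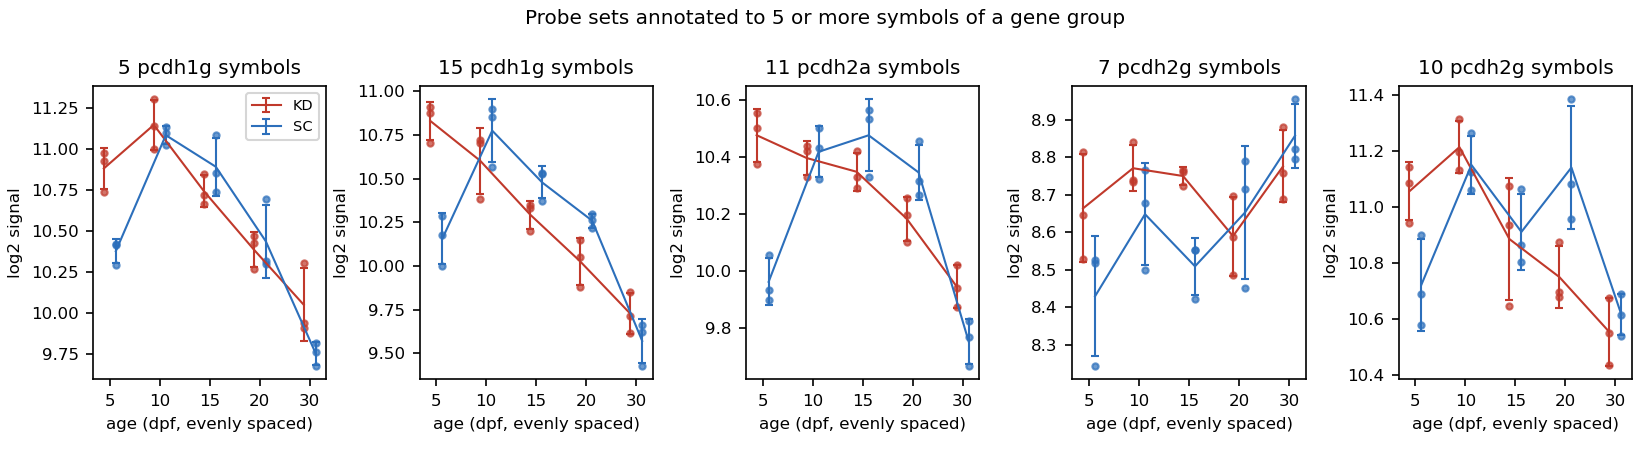
Log2 signal of the 5 probe sets annotated to 5 or more symbols of a protocadherin group, by age (ages evenly spaced, each panel with its own axis), with points for arrays and lines and bars for the mean and SD of KD and SC. At 5 dpf the KD points of the 15-symbol pcdh1g set and the 11-symbol pcdh2a set lie above the SC points, and from 10 to 20 dpf the KD means lie at or below the SC means in both.

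In the set for all pcdh1g symbols, the KD minus SC difference did not last. It was 0.68 at 5 dpf, -0.17 at 10 dpf, -0.18 at 15 dpf, -0.23 at 20 dpf and 0.16 at 30 dpf, and only the first passed. The change of the difference between 5 and 20 dpf was -0.91 (SE 0.17, adjusted p = 0.00154). The set for all pcdh2a symbols had differences of 0.51, -0.02, -0.13, -0.16 and 0.19 at the same ages, and the change of its difference between 5 and 20 dpf was -0.68 (SE 0.14, adjusted p = 0.00315).

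Genes of other cell-surface molecules, not all of them confined to neurons, were higher at 5 dpf as well. Of 15 nonclustered protocadherins, which lie outside the clusters and lack the shared constant exons, 8 were higher and 0 lower, with a median of 0.42. Among them pcdh15b averaged 8.01 in KD and 7.31 in SC heads (limma adjusted p = 6.84e-06), and pcdh10a averaged 8.88 in KD and 8.15 in SC heads (adjusted p = 2.01e-05). In a list of 44 other neuronal recognition genes 14 were higher and 0 lower (median 0.28), led by dscaml1, an immunoglobulin-family adhesion molecule (0.65), and the synaptic adhesion genes cadm3 (0.55) and nlgn2b (0.54). Of the 41 neuron markers 3 were higher, against 5.47% of all genes, and 13 had an unadjusted p under 0.05, with a median of 0.21. The 3 were the glutamate receptor genes grin1b (0.64) and gria2b (0.33) and the enolase eno2 (0.38). The highest median of these lists, 0.44, was that of a retinal list, with 6 of 13 higher. It holds ganglion and amacrine markers and also the cone genes gngt2a and gngt2b. Of the cone genes, gngt2b was among the 6 (0.64). Whether the members differed from these lists was not tested.

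Genes that act on or after the clusters were read at 5 dpf as well. Of 27 measured genes for CTCF, cohesin and promoter silencing, 4 were higher in KD heads and 0 lower, against 5.47% of all genes higher and 6.51% lower, and 10 had an unadjusted p under 0.05. The 4 include the cohesin loaders nipblb (0.46, adjusted p = 0.00257) and nipbla (0.59, adjusted p = 0.00533). The insulator protein gene ctcf averaged 8.95 in KD and 8.61 in SC heads, a difference of 0.33 (SE 0.10, adjusted p = 0.0346). Of 21 signalling partners of the cytoplasmic tails, 2 were higher, both of the WAVE complex that drives actin branching: wasf3a (0.66, adjusted p = 0.000415) and abi1a (0.39, adjusted p = 0.00991). The members and these lists share the 5 dpf arrays, with their visceral score of 5.75 ± 0.34 in KD against 9.65 ± 0.06 in SC heads.

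**Figure D4:**
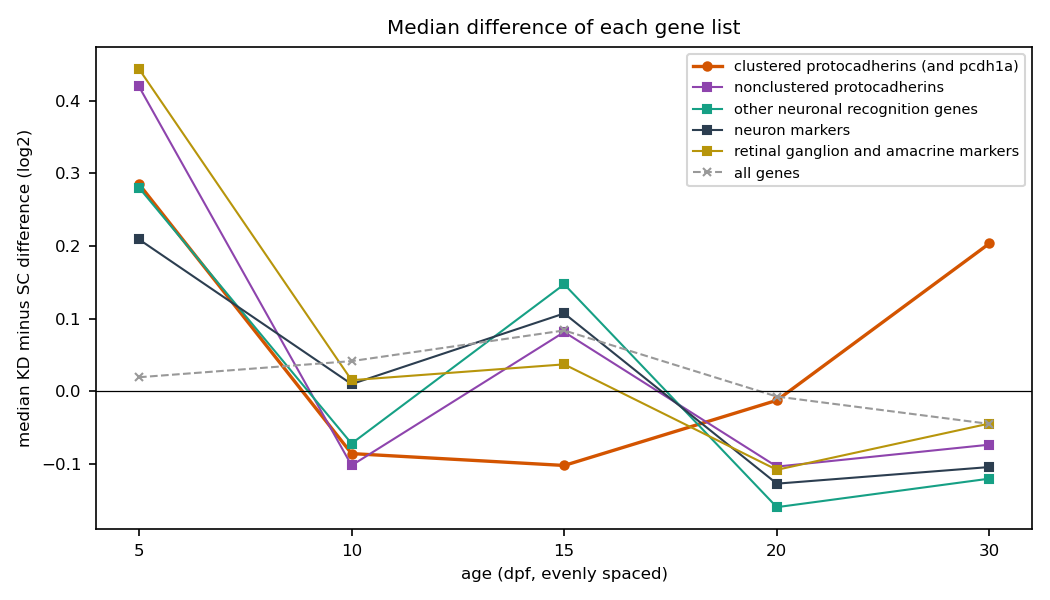
Median KD minus SC difference (log2) over the genes of each list at each age (ages evenly spaced), for the 29 members, 4 other gene lists and all genes. All lists stand above all genes at 5 dpf, where the members are at 0.29, and at 30 dpf the members are at 0.20 while every other list is below 0.

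At 10, 15 and 20 dpf at most 1 member passed the test at each age. At 10 dpf 1 member was higher and 0 lower, against 1.76% of all genes higher and 0.914% lower. This was pcdh2ab10 again, at 8.64, 8.28 and 8.19 in KD heads and 8.05, 7.32 and 7.61 in SC heads (difference 0.71, SE 0.19, limma adjusted p = 0.036). Its call at this age was lost in 8 of 15 alternatives, among them the mean of its 3 probe sets (0.11), and also without KD replicate 1 or 2 or without SC replicate 2 or 3. The C-type pcdh1gc5 was again above every SC array, with 8.64, 8.84 and 9.28 in KD and 7.94, 8.21 and 8.49 in SC heads, and did not pass (difference 0.71, adjusted p = 0.092). At 15 dpf 0 members passed in limma, against 12% of all genes, and 1 had an unadjusted p under 0.05, pcdh2g28 at -0.46 (adjusted p = 0.118).

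At 20 dpf 1 member was lower and 0 higher, against 4.31% of all genes lower and 10.2% higher. For pcdh2g7, a variable gamma gene of cluster 2, the KD arrays read 6.07, 6.11 and 6.46 and the SC arrays 6.55, 6.85 and 6.84, so that KD replicate 3 came close to SC replicate 1 (difference -0.53, SE 0.15, limma adjusted p = 0.0184). This call was lost without KD replicate 1 or 2 or without SC replicate 2 or 3, with the difference between -0.66 and -0.46 over 15 alternatives. Signals of pcdh2ab7 were 7.43, 7.54 and 7.72 in KD heads, above 6.71, 6.74 and 6.35 in SC heads, and did not pass (difference 0.97, SE 0.45, adjusted p = 0.166). Over the 5 ages together, the mean difference passed for 1 member, pcdh2ab10 (0.36, SE 0.08, adjusted p = 0.0163), against 3.01% of all genes. With the mean of its 3 probe sets this was 0.14 and did not pass (adjusted p = 0.367). Without 5 dpf its mean difference was 0.25 (adjusted p = 0.137), and 0 members passed by limma, against 2.9% of all genes, while 9 had an unadjusted p under 0.05.

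At 30 dpf, an age when few genes of the array passed the test, pcdh1g26 and pcdh2ab7 were higher in KD heads. Of 29 members 2 were higher and 0 lower, against 0.363% of all genes higher and 0.639% lower. The difference was positive for 21 members and negative for 8, with a median of 0.20, against -0.04 over all genes. All 3 KD arrays lay above all SC arrays in 9 members, against 6.91% of all genes, and below them in 1, pcdh2ab2, against 14.4%. An unadjusted p under 0.05 was reached by 7 members, 4 of them pcdh1g genes.

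The gamma gene pcdh1g26 read 9.25, 9.24 and 9.21 in KD heads at 30 dpf, against 8.47, 8.30 and 7.95 in SC heads. The KD arrays were nearly equal, and the gap to the SC arrays was wide (difference 1.00, SE 0.17, 2-fold, limma adjusted p = 0.00137). It passed in each of 15 alternatives, with differences of 0.85 to 1.11. At 5 dpf the same gene had 9.62, 9.47 and 9.60 in KD and 9.17, 9.28 and 9.16 in SC heads, without overlap but short of the threshold (difference 0.36, adjusted p = 0.174).

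The alpha gene pcdh2ab7 had 6.94, 7.13 and 6.75 in KD heads at 30 dpf, against 6.10, 5.52 and 3.51 in SC heads. SC replicate 3 lay far below the other SC arrays and well under the dim limit. The difference was 1.90 (SE 0.45, 3.72-fold, limma adjusted p = 0.0337). Without SC replicate 3 it was 1.13 and did not pass, with adjusted p = 0.288, and the call was lost in 7 of 15 alternatives in all, among them the removal of any 1 KD replicate. The same SC array was the lowest of its group in pcdh1g26 too. Its mean signal over all members was also the lowest of the group, at 6.48, against 6.76 and 6.68 in SC replicates 1 and 2. This mean includes the value of 3.51 in pcdh2ab7. SC replicate 3 was not the lowest SC array in every member. In pcdh1g9 it was the highest, at 6.91 against 6.70 and 6.79, and in pcdh1a6 and pcdh1gb2 it lay between the others.

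Among members that did not pass at 30 dpf, 7 had all KD arrays above all SC arrays; the differences of pcdh1a6 (0.42), pcdh1g9 (0.45), pcdh1gb2 (0.44) and pcdh2aa15 (0.57) were the largest of these, with limma adjusted p between 0.165 and 0.452. The gene with the largest difference at 5 dpf, pcdh2ab2, went the other way, with 6.03, 6.05 and 6.34 in KD and 6.90, 6.53 and 6.58 in SC heads (difference -0.53, adjusted p = 0.202), although its dim second set was at 0.37 (adjusted p = 0.643 over all probe sets). The group-wide probe sets stood at 0.16 for all pcdh1g and 0.19 for all pcdh2a symbols and did not pass. At the same age 0 of 15 nonclustered protocadherins, 0 of 44 recognition genes and 0 of 41 neuron markers passed in either direction by limma, with medians of -0.07, -0.12 and -0.10, and 1, 10 and 5 of them had an unadjusted p under 0.05. Over all genes only 0.363% were higher and 0.639% lower at 30 dpf, with a median of -0.04. Whether the members differed from these lists was not tested. The neuron score was 8.64 ± 0.05 in KD and 8.76 ± 0.10 in SC heads, and the visceral score 6.23 ± 0.44 in KD and 5.78 ± 0.17 in SC heads. With the neuron score as a covariate, 1 member remained past the threshold at this age, where 165 of 19260 genes passed in either direction.

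The KD minus SC difference varied with age in 12 of the 29 members by limma's F test of the 4 later differences against that at 5 dpf, while 31.7% of all genes passed this test. The smallest adjusted p was that of pcdh2ab2, 0.000293, whose difference at 30 dpf was 1.65 below that at 5 dpf (-1.65, SE 0.26, adjusted p = 7.41e-05). For pcdh1gc5 the change of the difference between 5 and 20 dpf was -1.12 (SE 0.32, adjusted p = 0.0143), and for pcdh2g1 it was -0.78 (SE 0.18, adjusted p = 0.00277). In the opposite direction, pcdh2ab7 stood at -0.63 at 5 dpf, with 5.39, 4.2 and 5.92 in KD and 4.94, 5.71 and 6.75 in SC heads. The means of both 5 dpf groups and of SC at 30 dpf lay under the dim limit of 6.06 in this gene, and SC at 30 dpf includes the array at 3.51, so no size is given for its change between these ages. Signals of pcdh2g7 at 5 dpf were 6.96, 7.36 and 7.23 in KD and 6.81, 6.74 and 6.85 in SC heads (difference 0.38, adjusted p = 0.11), and the change of its difference between 5 and 20 dpf was -0.92 (SE 0.22, adjusted p = 0.00363). Since 5 dpf enters each of these comparisons, the visceral transcripts of its SC arrays stand beside them too; without 5 dpf, 3 members passed the F test, against 21.2% of all genes.

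**Figure D5:**
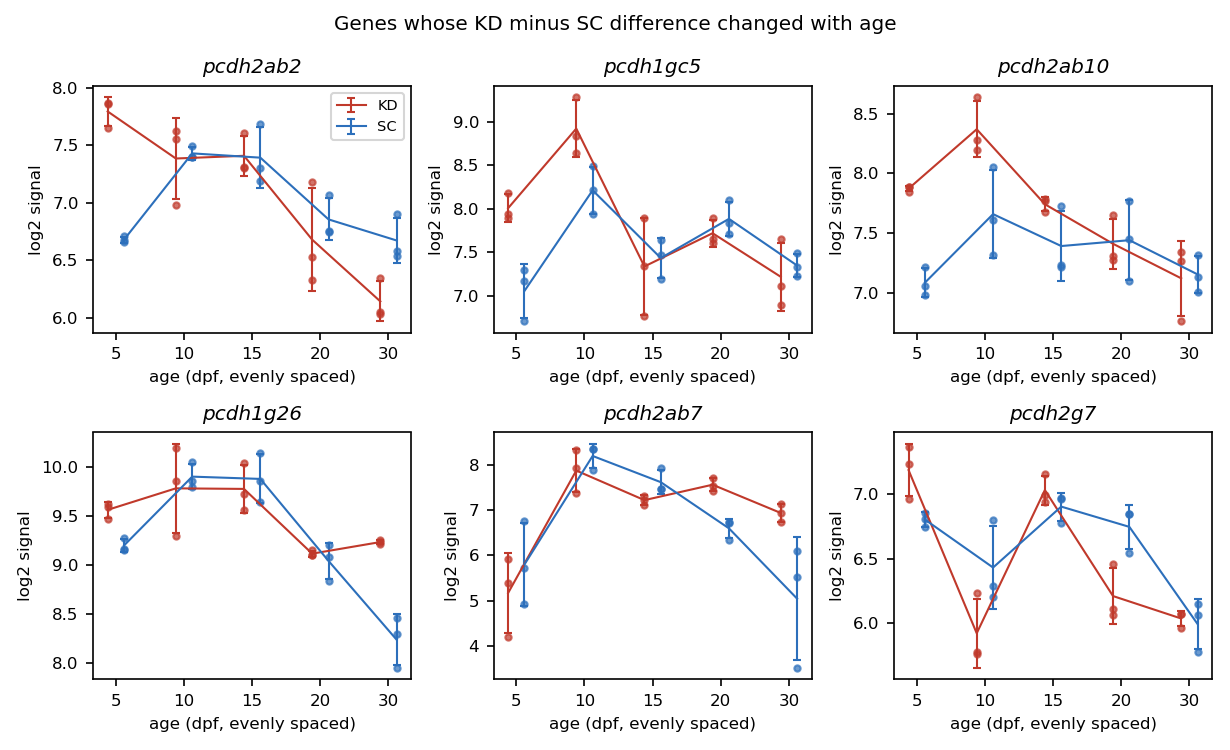
Log2 signal of 6 members whose KD minus SC difference varied with age, by age (ages evenly spaced, each panel with its own axis), with points for arrays and lines and bars for the mean and SD of KD and SC. KD lies above SC at 5 dpf in pcdh2ab2, pcdh1gc5 and pcdh2ab10 and at 30 dpf in pcdh1g26 and pcdh2ab7, where 1 SC array is at 3.51.

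With age, most members had their highest signal at 10 dpf and their lowest at 30 dpf in both treatments. The group mean was highest at 10 dpf for 18 members in KD and 21 in SC heads, and lowest at 30 dpf for 20 in KD and 23 in SC heads. The mean signal over the 29 members was 7.28, 7.67, 7.47, 7.18 and 6.89 in KD heads at 5, 10, 15, 20 and 30 dpf, and 6.99, 7.68, 7.54, 7.12 and 6.64 in SC heads. The range between the highest and the lowest group mean of a member had a median of 1.07 in KD and 1.14 in SC heads, against 0.56 in KD and 0.62 in SC heads over all genes.

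From 10 to 30 dpf, 21 of 29 members fell and 1 rose in KD heads, where 17% of all genes fell and 26.9% rose, and 26 fell and 0 rose in SC heads, where 16.9% of all genes fell and 34.8% rose. All 11 pcdh2g genes fell in SC heads and 9 of them in KD heads. The median change was -0.83 in KD and -0.87 in SC heads, against 0.05 in KD and 0.12 in SC heads over all genes. The largest fall in KD heads was that of pcdh1gc5, -1.71 (SE 0.23, limma adjusted p = 9.41e-07), and in SC heads that of pcdh2ab7, -3.16 (SE 0.45, adjusted p = 1.97e-06), which includes the array at 3.51 and ends under the dim limit. The 1 member that rose was pcdh1a6, which gained 0.52 between 10 and 30 dpf in KD heads (adjusted p = 0.012), while its change in SC heads was -0.24 (adjusted p = 0.23). Between these ages 10 of 15 nonclustered protocadherins fell in each treatment, and 0 rose in KD and 1 in SC heads. Of 44 other recognition genes 31 fell and 1 rose in KD heads, and 26 fell and 1 rose in SC heads. Of 41 neuron markers 9 fell and 9 rose in KD heads, and 8 fell and 15 rose in SC heads. Of 23 muscle markers 21 rose in each treatment. Whether the members differed from these lists was not tested, nor was the part of tissue makeup.

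Between 5 and 30 dpf, 19 members fell and 4 rose in KD heads, where 20% of all genes fell and 30.6% rose, and 11 fell and 0 rose in SC heads, where 16.8% of all genes fell and 34.1% rose. Without SC replicate 3 at 30 dpf, 7 fell in SC heads. The KD and SC values at 5 dpf are also those of the treatment comparison at that age, so the comparisons are not independent. The visceral score went from 9.65 at 5 dpf to 5.78 at 30 dpf in SC heads, and from 5.75 to 6.23 in KD heads. The part of this shift in the unlike changes of KD and SC heads was not tested. Among members, the largest falls in SC heads were those of pcdh1g26, pcdh1g18 and pcdh2g28. Signals of pcdh1g18 were 6.03, 6.52 and 6.07 in SC heads at 30 dpf, against 7.04, 7.02 and 7.32 at 5 dpf (difference -0.92, SE 0.23, limma adjusted p = 0.00139), and its change in KD heads was -0.83 (adjusted p = 0.00338). For pcdh2g28 the SC arrays gave 7.32, 6.50 and 6.51 at 30 dpf and 7.74, 7.61 and 7.69 at 5 dpf (difference -0.90, SE 0.19, adjusted p = 0.0003), and the change in KD heads was -1.0 (adjusted p = 9.2e-05). The gamma gene pcdh1g26 fell by 0.96 in SC heads (SE 0.17, adjusted p = 3.67e-05), while its change in KD heads was -0.33 (adjusted p = 0.108). The alpha gene pcdh2ab2 fell by 1.65 in KD heads (SE 0.18, adjusted p = 3.6e-08), while its change in SC heads was -0.01 (adjusted p = 0.979). With the mean of its brightest and its dim probe set the fall in KD heads was smaller, at -0.86, and still passed; the dim set alone changed by -0.07 (adjusted p = 0.857 over all probe sets).

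The 4 members that rose between 5 and 30 dpf in KD heads were pcdh1a6 (0.40), pcdh2ab7 (1.77), pcdh2g3 (0.63) and pcdh2g5 (0.71). In SC heads their changes were 0.32, -0.76, -0.05 and 0.08, and none passed. The KD means of pcdh2ab7 and pcdh2g5 at 5 dpf, 5.17 and 5.76, lay under the dim limit. The rise of pcdh1a6 was lost without any 1 KD replicate at 30 dpf and without KD replicate 1 or 2 at 5 dpf, and that of pcdh2g5 without KD replicate 3 at 30 dpf or KD replicate 1 at 5 dpf. With the mean of its probe sets the change of pcdh2g3 was -0.016. The set for all pcdh1g symbols fell by 1.1 in KD heads (adjusted p = 2.54e-07), where 15.8% of all probe sets fell and 16.1% rose, and by 0.58 in SC heads (adjusted p = 0.000617). Of the 15 nonclustered protocadherins 12 fell and 0 rose in KD heads, and 8 fell and 1 rose in SC heads, between the same ages. The muscle score at 30 dpf was 10.1 in KD and 10.2 in SC heads, against 8.29 in KD and 9.17 in SC heads at 5 dpf, and the part of a changing tissue makeup in the fall of the protocadherins was not tested.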

How the data were processed

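Signals came from 30 Affymetrix zebrafish gene arrays, 3 per treatment and age, and samples were grouped by their labels. The authors deposited log2 values, summarised and normalised over arrays by RMA per the submitters' processing notes (version not given in the sources used here). These values were used as deposited. Of 75212 probe sets, the platform annotation gives 1 symbol to 20806, several to 855 and none to 53551. Each of the 19260 genes was read by its brightest probe set by mean over all arrays; 1365 have several. The annotation can be old, and a current symbol was found for 18811 genes. The number of arrays limits the precision.

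A linear model with 1 mean per group was fitted to all genes with limma 3.58.1 in R 4.3.3 (20 residual and 6.05 prior degrees of freedom), with Benjamini-Hochberg adjustment over all genes in each contrast. The contrasts were KD minus SC at each age, their mean, an F test of the difference across ages, and 30 minus 5 or 10 dpf within each treatment. Probe sets with several symbols were tested in a like fit of all 75212. Intervals are at 95%. The procedure was tested on simulated data. Files were read with the R package data.table (1.17.8), and figures drawn with matplotlib 3.10.9 in Python 3.11.15.

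Values by array are given for members called in KD minus SC, for those with the smallest p in the F test and the mean over ages, and for the largest changes of SC heads between 5 and 30 dpf; up to 3 genes with the smallest p are named from each of 14 other lists (312 genes, 271 measured). Members and lists were chosen with earlier results of these data known, and other genes named were picked after their values were seen. Of 15 pairs of KD and SC arrays with the same age and replicate number, 4 had deviations correlated above 0.1 (range -0.12 to 0.28), so the numbers were not taken to pair the pools. Alternatives were another prior, omission of dim genes, a second normalisation, median centring, other probe set rules, array weights, a replicate block, a neuron covariate, fits of the compared arrays alone and omission of each array. The counts without pcdh1a and the tests without 5 dpf were added after seeing the data.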

Additional observations from a re-analysis of the deposited data

Results flagged for a closer look

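The KD minus SC difference varied across the 5 ages in 12 members by limma's F test with Benjamini-Hochberg adjustment over all genes, against 31.7% of all genes. Without 5 dpf, 3 members passed, against 21.2% of all genes. With all 5 ages, the adjusted p was 0.000293 for pcdh2ab2, 0.00319 for pcdh1g26, 0.00451 for pcdh2g7 and 0.00685 for pcdh2g1. It was 0.0109 for pcdh2ab7, 0.0123 for pcdh1gc5, 0.0134 for pcdh1a and 0.0153 for pcdh2g9. For pcdh1gb9 it was 0.0247, for pcdh2ab10 0.0283, for pcdh2g3 0.0402 and for pcdh1g29 0.0421. Over 38 alternatives the call of pcdh2g3 was lost in 19 (adjusted p up to 0.28), among them the mean of its probe sets and the omission of replicate 2 or 3 of either treatment at 5 dpf. That of pcdh1g29 was lost in 15 (up to 0.158), with the same 5 dpf omissions among them. The call of pcdh2ab10 was lost in 4 (up to 0.645), with the mean of its probe sets, the neuron covariate and without KD replicate 2 of 20 dpf or SC replicate 3 of 30 dpf. That of pcdh1gb9 was lost in 3 (up to 0.0897), without KD replicate 2 or 3 or SC replicate 3 of 5 dpf, and that of pcdh2ab7 in 1, the neuron covariate (0.0606). In 8 of these genes (pcdh1a, pcdh1g29, pcdh1gb9, pcdh1gc5, pcdh2ab10, pcdh2ab2, pcdh2g1 and pcdh2g9) the signal was higher in KD heads at 5 dpf, and in pcdh1g26 and pcdh2ab7 at 30 dpf. The remaining pair, pcdh2g3 and pcdh2g7, passed at neither of these ages: pcdh2g3 had a difference of -0.38 at 5 dpf and 0.31 at 30 dpf, and pcdh2g7 was lower in KD heads at 20 dpf.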

How the results depend on the processing

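The count of called members stayed within 1.5 times the reported one in 17 of 17 alternatives at 5 dpf and at 15 dpf, in 18 of 18 for KD 30 minus 5 dpf, in 40 of 41 for the F test (3 members without 5 dpf) and in 16 of 18 for SC 30 minus 5 dpf (26 with 10 dpf as the start). It was less steady where 1 or 2 members passed. At 10 dpf it was 2 without dim genes and 0 with median centring, the mean of all probe sets, array weights, every probe set or the compared arrays alone. At 20 dpf it was 2 with array weights and 3 with the compared arrays alone. At 30 dpf it was 1 with trend and robust spread, the neuron covariate, every probe set or the compared arrays alone. For the mean over ages it was 2 with trend and robust spread, without dim genes or with the neuron covariate, 5 with array weights, and 0 with the mean of all probe sets, every probe set or without 5 dpf. With 1 array left out, the counts ranged from 7 to 10 at 5 dpf, 0 to 2 at 10 dpf, 0 to 0 at 15 dpf, 0 to 1 at 20 dpf, 1 to 2 at 30 dpf, 1 to 3 for the mean (3 without KD replicate 1 of 5 or 10 dpf), 9 to 16 for the F test, 7 to 14 for SC 30 minus 5 dpf and 17 to 20 for KD 30 minus 5 dpf. With the replicate number as a block the counts were 10, 1, 0, 1 and 2 at the 5 ages, 1 for the mean, 12 for the F test, 23 for KD 30 minus 5 dpf and 13 for SC 30 minus 5 dpf, so the block changed no count by over 1.5 times. Called values of single members held their call in 1119 of 1248 alternatives, lost it in 122 and changed sign in 7. With the mean of all probe sets, pcdh2ab10 was at -0.079 (KD minus SC at 5 dpf) and 0.16 (KD 30 minus 5 dpf), and pcdh2g3 at -0.016 (KD 30 minus 5 dpf). With 10 dpf in place of 5 dpf, which is another comparison, the change in KD heads was -0.94 for pcdh2ab7, -0.61 for pcdh2g3, -0.075 for pcdh2g5 and 0.11 for pcdh2g7. Some SC changes that were not called from 5 to 30 dpf, and so are not among the 7, also had another sign from 10 dpf. They were -0.87 for pcdh1gc5, -0.50 for pcdh2ab10, -0.72 for pcdh2g1 and -0.85 for pcdh2g5. Signals under 6.06 may be held up by background, so their differences can be understated. Such signals occur in pcdh2aa3, in most arrays of pcdh2ab7 at 5 dpf and in SC replicates 2 and 3 of pcdh2ab7 at 30 dpf. Some arrays of other members lay under this limit too. They include SC replicate 3 of pcdh1gb9 (5.60) and KD replicates 1 and 2 of pcdh2g5 (5.52 and 5.64) at 5 dpf. All arrays of pcdh2aa15 at 30 dpf are also among them. The cause of these shifts was not tested.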

Other observations

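The probe sets of single pcdh2a genes form 2 runs of identifiers on either side of the set annotated to all pcdh2a symbols (13007405); that their values at 5 dpf differ was noticed after they were seen and was not tested. Over all probe sets, most of which carry no symbol, 1.43% were higher and 2.23% lower in KD heads at this age. In the run from 13007367 to 13007400, which includes pcdh2ab2 and the brightest set of pcdh2ab10, all 6 sets had positive KD minus SC differences, from 0.37 to 1.12 with a median of 0.77. By limma 2 of them were higher in KD heads, and all 6 had an unadjusted p under 0.05. In the run from 13007414 to 13007444, 10 sets had differences from -0.97 to 0.53 with a median of -0.01, 5 above and 5 below 0; 0 passed by limma, and 3 had an unadjusted p under 0.05. Between 5 and 30 dpf, 5 of the 6 sets of the first run fell in KD heads, with changes of -1.65 to -0.51, while in the other run 1 fell and 2 rose. Of all probe sets, 15.8% fell and 16.1% rose in KD heads between these ages. In SC heads the median change of the first run was 0.03 and that of the other run -0.38. Several genes, among them pcdh2ab10 and pcdh2ab3, have probe sets in both runs, and the annotation does not say where in the locus the runs lie.

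Other cell type lists were read at 5 dpf too, an age at which 5.47% of all genes were higher and 6.51% lower. Whether these lists differed from all genes was not tested. Of 10 serotonin neuron markers 0 were higher or lower in KD heads by limma with Benjamini-Hochberg adjustment, and 1 had an unadjusted p under 0.05. Of 7 olfactory sensory neuron markers 1 was higher, the olfactory marker protein gene ompa (0.79). Of 21 genes listed as neural progenitor markers 6 were higher and 1 lower. The largest differences were those of the eye and brain transcription factors pax6a (0.89) and pax6b (0.74), which are not confined to progenitors. Of 7 oligodendrocyte and Schwann cell markers 2 were lower, the myelin genes cldnk (-0.52) and mbpa (-0.55).

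Regulators of promoter choice were also read over age. Between 5 and 30 dpf, 7 of 27 genes for CTCF, cohesin and silencing rose and 3 fell in KD heads, with a median of 0.04; over all genes 30.6% rose and 20% fell, with a median of 0.05. In SC heads 15 rose and 1 fell, with a median of 0.33; over all genes 34.1% rose and 16.8% fell, with a median of 0.13. The 5 dpf arrays are those with a visceral score of 9.65 in SC and 5.75 in KD heads. From 10 to 30 dpf, 5 genes of the list rose and 4 fell in KD heads, with a median of -0.10, where 26.9% of all genes rose and 17% fell. In SC heads 11 rose and 4 fell, with a median of 0.07, where 34.8% of all genes rose and 16.9% fell. Whether the list differed from all genes, or between treatments, was not tested.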
